A study of Rattus norvegicus with 10 samples.

Results

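The miR-29 family was examined in the rat left ventricle after infusion of dexmedetomidine (DEX). It is represented on the array by 6 of 761 microRNAs (miRNAs), chosen by name: rno-miR-29a-3p, rno-miR-29b-3p, rno-miR-29c-3p, rno-miR-29a-5p, rno-miR-29b-5p and rno-miR-29c-5p. No measured value entered this rule, though earlier results of these data were known when the members were chosen. The animals were male Wistar rats, with no further genetic change given, and their age was not given in the sources used here. The Control group received saline and the DEX group received DEX, a sedative and alpha2 adrenergic receptor agonist, each for 30 min, and the anterior wall of the left ventricle was taken after a short washout. Each group held 5 arrays, 1 per rat, and each array read the Cy5-labelled RNA of 1 heart. The question was which miRNAs differ in the heart after the drug.

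A miRNA is cut from a hairpin precursor, which yields one mature strand from its 5' side (5p) and one from its 3' side (3p), and bases 2 to 8 of the mature strand, the seed, do most of the pairing with target mRNAs. The 3p strands of miR-29 are the main products of their hairpins and are known to repress mRNAs of collagens, elastin, fibrillin and other proteins of the extracellular matrix. In the heart the family is known from fibroblasts and from fibrosis, and the 5p strands are the less studied passenger strands.

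The mature strands are shown first because the 3p arms differ so little that a capture probe for one may also bind another. The sequences are those of RefSeq (build GRCr8), written 5' to 3', with the seed in capitals. All 6 members matched an entry.
rno-miR-29a-3p: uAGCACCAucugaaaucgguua
rno-miR-29b-3p: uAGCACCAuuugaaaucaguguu
rno-miR-29c-3p: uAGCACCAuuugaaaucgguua
rno-miR-29a-5p: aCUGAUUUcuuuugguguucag
rno-miR-29b-5p: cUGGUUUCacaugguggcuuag
rno-miR-29c-5p: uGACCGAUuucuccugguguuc

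The 3p arms shared 1 seed, and no other miRNA had it among the 685 of 761 array names with a sequence. Counted from 1 at the 5' end, rno-miR-29a-3p differed from rno-miR-29c-3p by C10U alone, so that 21 of 22 bases were the same. It differed from rno-miR-29b-3p by C10U, G18A, U21G and A22U, and rno-miR-29b-3p is 1 base longer. Rno-miR-29b-3p and rno-miR-29c-3p differed by A18G, G21U and U22A. The 5p arms had 3 different seeds, none of which was found in another sequence of the array, although 17 of 20 bases of rno-miR-29a-5p and rno-miR-29c-5p were the same when aligned with an offset of 2 bases. The sequences of the capture probes were not used here, and cross-hybridization between the 3p arms was not tested.

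The members come from 4 hairpins in 2 pairs. The hairpins are shown because rno-miR-29b-3p is encoded on both chromosomes, while the 5p probe named rno-miR-29b-5p belongs to only one of them. The mature strands are in capitals, with the 5p strand first.
Mir29a: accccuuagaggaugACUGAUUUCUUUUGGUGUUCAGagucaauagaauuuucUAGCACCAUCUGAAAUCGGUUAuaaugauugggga
Mir29b1: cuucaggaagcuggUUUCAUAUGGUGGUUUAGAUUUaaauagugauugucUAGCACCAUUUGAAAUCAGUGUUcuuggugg
Mir29b2: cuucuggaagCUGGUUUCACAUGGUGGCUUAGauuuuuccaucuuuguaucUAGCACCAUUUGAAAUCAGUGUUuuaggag
Mir29c: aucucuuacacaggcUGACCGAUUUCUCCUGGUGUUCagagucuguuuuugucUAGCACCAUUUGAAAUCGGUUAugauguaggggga

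In GRCr8, Mir29a lies on the minus strand at chr4:60617955-60618042, and Mir29b1 lies 291 bases away on the same strand at chr4:60618334-60618414. Mir29b2 lies on the plus strand at chr13:109098831-109098911, and Mir29c lies 447 bases further on the same strand at chr13:109099359-109099446. The chromosome 13 pair is inside the bounds of the long noncoding RNA gene LOC102550527 (chr13:109040310-109099731). Whether the hairpins are in its exons or introns was not examined. A probe for rno-miR-29b-3p cannot tell Mir29b1 from Mir29b2, since both give the same mature strand. Rno-miR-29b-1-5p (MIMAT0005445), the 5p strand of Mir29b1, was on the array and was detected on 0 of 10 arrays.

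RefSeq also places 3 miRNA hairpins on the strand opposite to miR-29. Their mature strands are exact complements of stretches of the 3p arms, and they are shown because their probes read the same places in the genome on the other strand.
rno-miR-3556a: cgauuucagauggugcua
rno-miR-3587: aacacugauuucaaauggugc
rno-miR-3556b: accgauuucaaauggugcua

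Rno-miR-3556a pairs with bases 1 to 18 of rno-miR-29a-3p, rno-miR-3587 with bases 3 to 23 of rno-miR-29b-3p, and rno-miR-3556b with bases 1 to 20 of rno-miR-29c-3p. None of the 3 was detected on any of the 10 arrays. Their spots lay between -10.3 and 7.24 intensity units from the blank spots, which is at most 1.93 SD of the blanks above them. On the same arrays the spot of rno-miR-29a-3p stood 1742 to 4763 units over blank, that of rno-miR-29b-3p 1686 to 4929 and that of rno-miR-29c-3p 1167 to 2632. Whether the probes of the opposite strand can give signal was not tested, and the levels of different probes are not compared.

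Each of the 6 members was detected on all 10 arrays, where a miRNA counted as detected if the deposited value table held a number for it. All values below are normalized signals, that is spot intensity over the blank spots, scaled so that the median of the detected miRNAs of an array is 25. The lowest detected value of an array (its floor) was 3.64 to 5.09. The 3p arms stood at 255 to 650 times the floor. Rno-miR-29c-5p stood at 8.97 to 14 times, rno-miR-29a-5p at 2.82 to 5 times and rno-miR-29b-5p at 1.4 to 3.22 times the floor. The last of these was therefore measured near the limit of detection on some arrays. Probes differ in affinity, so levels are compared between arrays and not between members.

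The arrays detected 483 to 533 miRNAs in Control and 483 to 514 in DEX. No label states the slide, and it was inferred here from the chip code in each array's name. By this code Control 1 to Control 4 lay on slide 1, Control 5 and DEX 1 to DEX 3 on slide 2, and DEX 4 and DEX 5 on slide 3. Slide and group therefore largely cannot be told apart. DEX 1 was dim before scaling (median 17.3 over blank, against 35.4 to 53.5 on the others). Heart muscle markers were detected on every array (5 of 5), with summed signals of 32198 to 45996 in Control and 31079 to 44985 in DEX. Of 5 epithelial and liver markers, 0 were detected on all arrays, 2 on at least 5 arrays and each on at least 1. Their summed signals were 10.4 to 29.5 in Control and 6.46 to 30 in DEX.

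Rno-miR-29a-3p (MIMAT0000802) had normalized signals of 2228, 1974, 1675, 1990 and 2329 on Control 1 to Control 5. It had 2522, 2369, 2168, 1837 and 2642 on DEX 1 to DEX 5. The groups overlapped: 3 of 5 DEX arrays lay above the highest Control array, and DEX 4 lay below the mean of Control. Control averaged 2039 ± 254 and DEX averaged 2308 ± 317 (SD over 5 rats each), and the two-sided exact permutation test gave p = 0.198. In limma the log2 difference, DEX minus Control, stood at 0.18 ± 0.15 (SE), with an adjusted p of 0.905 and a fold of 1.13 with a 95% confidence interval of 0.904 to 1.41. It was about as large as the spread within the groups, where the SD of log2 values was 0.18 in Control and 0.21 in DEX. The smallest p that the exact test can give with 5 arrays per group is 0.00794.

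Rno-miR-29b-3p (MIMAT0000801), the strand given by both pairs of hairpins, had 2175, 1946, 1718, 2038 and 2298 on Control 1 to Control 5. It had 2440, 2451, 2091, 1766 and 2670 on DEX 1 to DEX 5. The same arrays were high and low as for rno-miR-29a-3p: Control 3 and DEX 4 were the lowest of their groups, Control 5 and DEX 5 the highest. Control averaged 2035 ± 222 and DEX averaged 2284 ± 356 (SD over 5 rats each), and the two-sided exact permutation test gave p = 0.246. In limma the log2 difference stood at 0.16 ± 0.15 (SE), with an adjusted p of 0.905 and a fold of 1.12 (95% confidence interval, 0.891 to 1.4).

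Rno-miR-29c-3p (MIMAT0000803) had 1216, 1255, 1068, 1237 and 1385 on Control 1 to Control 5. It had 1689, 1290, 1245, 1208 and 1526 on DEX 1 to DEX 5. Here DEX 1, the dim array, was the highest of all, and 2 of 5 DEX arrays lay above the highest Control array. Control averaged 1233 ± 113 and DEX averaged 1392 ± 207 (SD over 5 rats each), and the two-sided exact permutation test gave p = 0.183. In limma the log2 difference stood at 0.17 ± 0.14 (SE), with an adjusted p of 0.905 and a fold of 1.12 (95% confidence interval, 0.909 to 1.39). Without DEX 1 the log2 difference was 0.095.

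**Figure D1:**
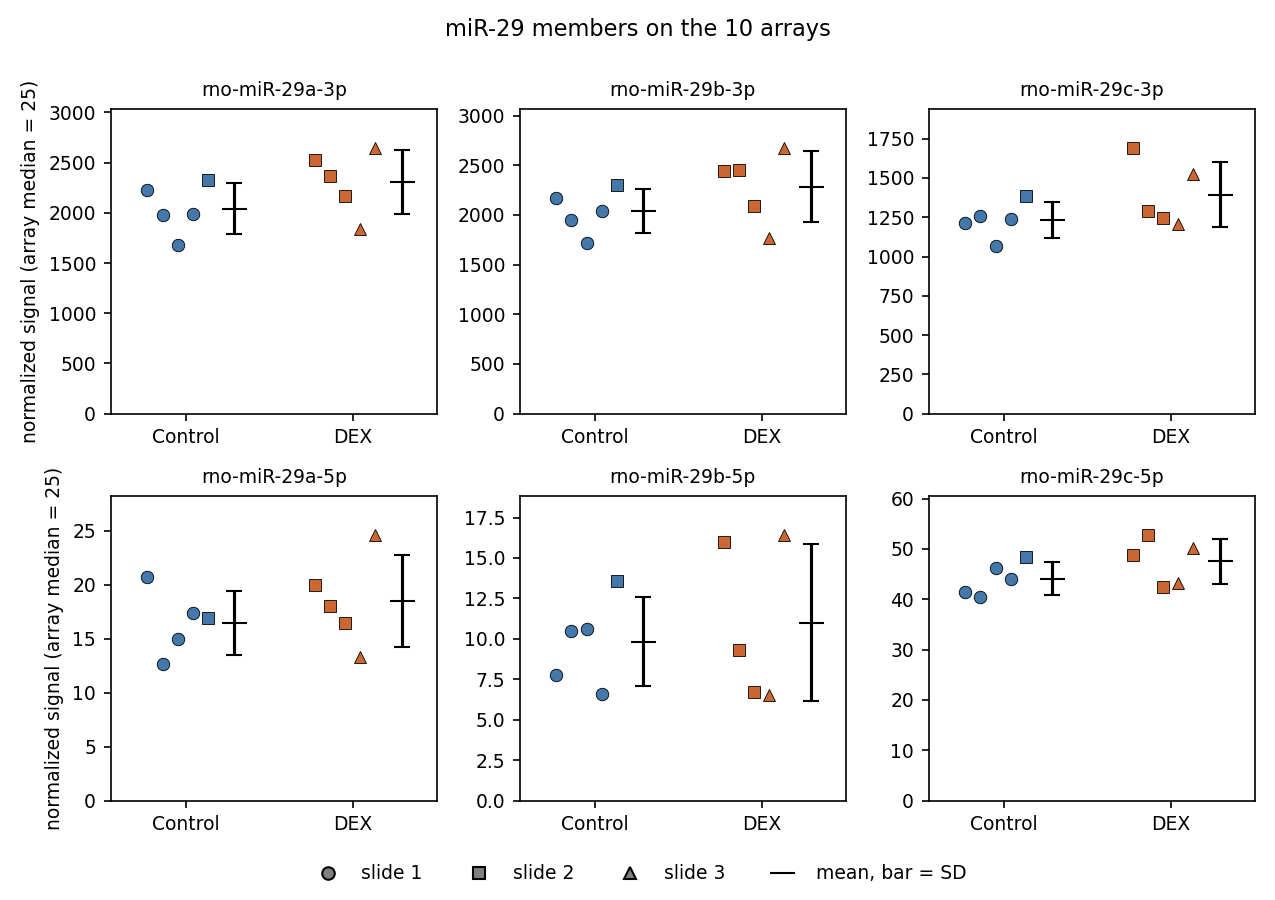
Normalized signal (y axis, linear, each from 0) of the 6 members on each array, Control in blue and DEX in orange, with marker shape giving the slide and the bar giving mean and SD (n = 5). The groups overlap in all 6 panels, and in the upper row (3p arms) Control 5 on slide 2 is the highest Control array, close to the 3 DEX arrays of its slide for rno-miR-29a-3p (2329 against 2168 to 2522).

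The 5p arms, the passenger strands, stood nearer to the floor. Rno-miR-29a-5p (MIMAT0004718) had 20.7, 12.7, 15, 17.4 and 16.9 on Control 1 to Control 5, against 20, 18, 16.5, 13.3 and 24.6 on DEX 1 to DEX 5. Only DEX 5 lay above the highest Control array. Control averaged 16.5 ± 2.96 and DEX averaged 18.5 ± 4.23 (SD over 5 rats each), and the two-sided exact permutation test gave p = 0.444. In limma the log2 difference stood at 0.15 ± 0.19 (SE), with an adjusted p of 0.905.

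Rno-miR-29b-5p (MIMAT0004717), the 5p strand of Mir29b2, had 7.74, 10.5, 10.6, 6.61 and 13.6 on Control 1 to Control 5, against 16, 9.31, 6.73, 6.52 and 16.4 on DEX 1 to DEX 5. DEX 1 and DEX 5 lay above all Control arrays and the other 3 DEX arrays lay below the Control mean of 9.81 ± 2.75 (SD, n = 5). The DEX mean was 11 ± 4.87 (SD, n = 5), and the two-sided exact permutation test gave p = 0.786. In limma the log2 difference stood at 0.09 ± 0.30 (SE), with an adjusted p of 0.945, a small part of the spread. Its sign turned when Control 4, DEX 1 or DEX 5 was left out, to values between -0.081 and -0.038.

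Rno-miR-29c-5p (MIMAT0003154) had 41.4, 40.4, 46.3, 44.1 and 48.4 on Control 1 to Control 5, against 48.8, 52.7, 42.5, 43.3 and 50.1 on DEX 1 to DEX 5. DEX 1, DEX 2 and DEX 5 lay just above the highest Control array, and DEX 3 and DEX 4 inside the Control range. Control averaged 44.1 ± 3.3 and DEX averaged 47.5 ± 4.43 (SD over 5 rats each), and the two-sided exact permutation test gave p = 0.214. In limma the log2 difference stood at 0.10 ± 0.13 (SE), with an adjusted p of 0.905. This member was the steadiest of the 6: its pooled SD within groups was 0.12 on the log2 scale, and 97.6% of the 167 miRNAs of middle brightness had a larger one. Rno-miR-29b-5p was the least steady at 0.54, against a median SD of 0.48 among the 168 dimmest tested miRNAs. The 3p arms had 0.18 to 0.20, against a median of 0.22 among the 168 brightest.

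In the limma fit over the 503 miRNAs detected on at least 5 arrays, 0 of 6 members passed an adjusted p of 0.05, where the share over all tested miRNAs was 0%. At an unadjusted p under 0.05 there were 0 of 6 members and 15 of 503 miRNAs (2.98%). The methods' t-test, run here at their thresholds on p and fold, called 0 of 6 members and 8 of the 503 tested miRNAs. The paper itself reports 6 miRNAs at these thresholds. The groups did not overlap for 0 of 6 members and for 0.596% of all tested miRNAs. In bulk tissue a change in the number of cells that hold a miRNA and a change in the amount per cell cannot be told apart.

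All 6 members had a higher mean log2 value in DEX, but without scaling between arrays all 6 were lower, with quantile normalization the 3p arms were lower, and with normexp background correction rno-miR-29a-5p and rno-miR-29b-5p were lower. The share of all tested miRNAs that were higher in DEX was 59.2%. At least 4 of 5 DEX arrays lay above the Control mean for 3 of 6 members, the 3p arms, and for 27.6% of all tested miRNAs. A log2 difference of at least 0.10 in DEX was reached by 5 of 6 members and by 35.8% of all. The median log2 difference was 0.154 over the 6 members and 0.168 over the 3p arms, beside 0.044 over all tested miRNAs. Without scaling these medians were -0.038 for the 3p arms and -0.161 for all miRNAs. One factor per array shifts every miRNA alike, so the distance of 0.124 between them is the same with and without scaling by construction. With quantile normalization, which is not of this kind, the distance was 0.020.

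The confidence intervals say how large a difference these arrays allow. For the 3p arms they ended at 1.39-fold to 1.41-fold, below the 1.5-fold that the methods set as a threshold. They ended at 1.3-fold for rno-miR-29c-5p and 1.47-fold for rno-miR-29a-5p, but at 1.66-fold for rno-miR-29b-5p. The upper limit of the 3p arms passed 1.5-fold with spike control scaling (1.51), with slide as a fixed term (1.56), without scaling (1.59) and with normexp background correction (7.29).

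**Figure D2:**
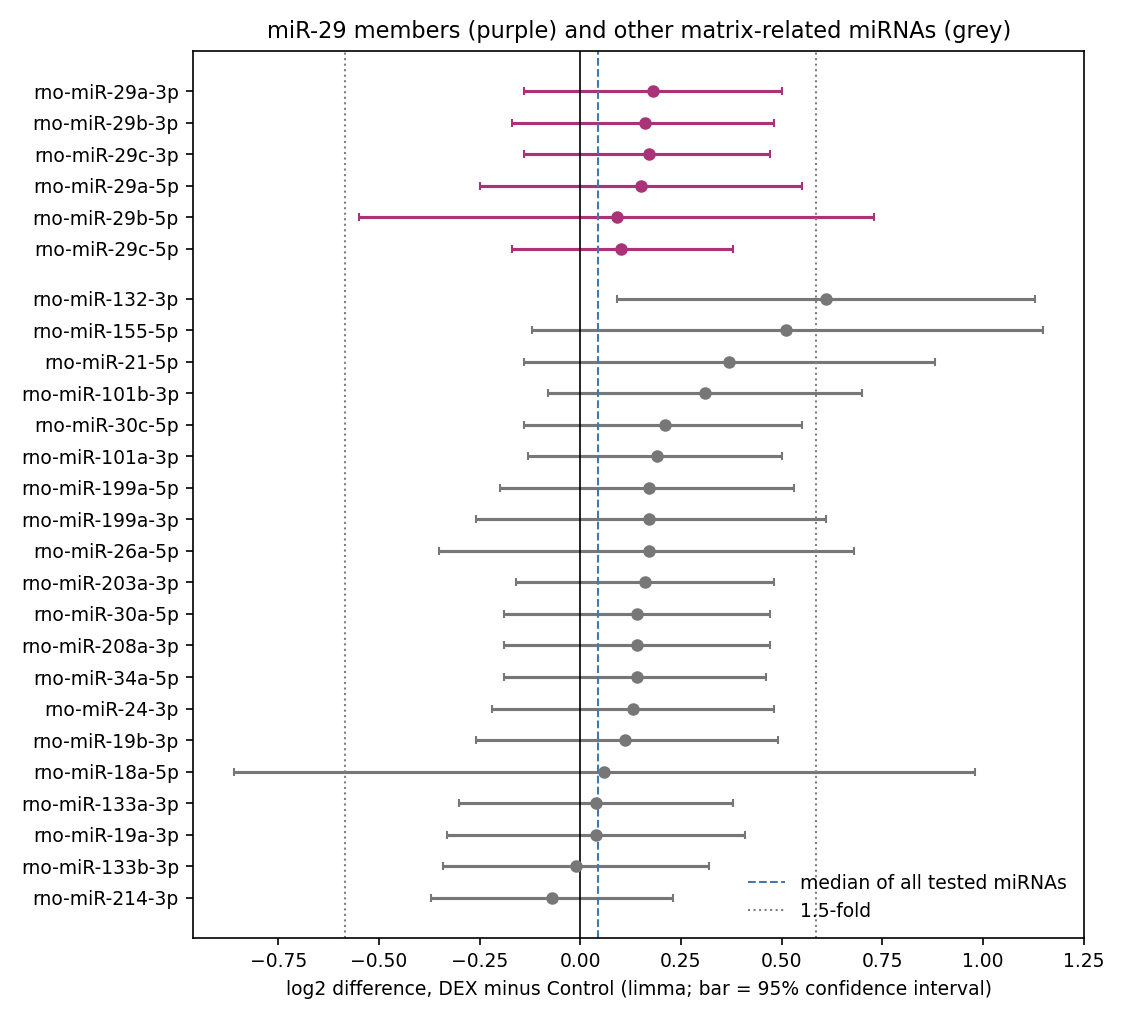
Log2 difference, DEX minus Control, from limma (x axis) for the 6 members in purple and 20 other miRNAs studied for collagen and fibrosis in grey, with bars giving the 95% confidence interval (5 arrays per group). Every member's interval includes 0, and of all 26 intervals the one of rno-miR-132-3p, not detected on all arrays, alone leaves 0 out. The dashed line is the median of all tested miRNAs (0.044) and the dotted lines mark 1.5-fold.

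Slide is the part of the design that moved these values most among the model terms. For rno-miR-29a-3p the 4 Control arrays of slide 1 had a mean of 1967 ± 226 (SD), while Control 5, the Control array on slide 2, had 2329 and the DEX arrays of slide 2 had 2168, 2369 and 2522. Within slide 2 the log2 differences were 0.012, 0.015 and 0.010 for rno-miR-29a-3p, rno-miR-29b-3p and rno-miR-29c-3p, and rest on 1 Control array. They were 0.10 for rno-miR-29a-5p, -0.45 for rno-miR-29b-5p and -0.017 for rno-miR-29c-5p. With slide as a fixed term the median of all tested miRNAs moved as well, to -0.188. With slide as a random block the estimated slide correlation was -0.0607, so that fit took out no slide effect, and its 3p median was 0.181. The share of slide in the group difference was not tested beyond this.

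The 3p arms were also set against each other within each heart. The log2 ratio of rno-miR-29b-3p to rno-miR-29a-3p within an array had an SD of 0.040 over the 10 arrays, and those of rno-miR-29c-3p to rno-miR-29a-3p and to rno-miR-29b-3p had 0.108 and 0.124. Ratios within an array do not depend on a scaling factor. Between DEX and Control these 3 log2 ratios differed by -0.02, -0.01 and 0.01. The log2 ratios of 3p to 5p arm differed by 0.03 for miR-29a, 0.07 for miR-29b and 0.06 for miR-29c, with SDs of 0.179, 0.426 and 0.166 over the arrays. None of the 6 ratios passed the test (two-sided exact permutation tests, smallest p = 0.5, Benjamini-Hochberg adjusted p = 0.937 for each of the 6). All of these differences were smaller than the spread between arrays.

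Across the 10 arrays, 15 pairs of members were correlated on the log2 scale, and 6 had an adjusted p under 0.05 by Pearson's r and 5 by Spearman's rho. Rno-miR-29a-3p and rno-miR-29b-3p had r = 0.981 and rho = 0.988 (permutation p = 1.0e-05 for each, the smallest that the resamples can give, adjusted p = 0.00015), and r = 0.970 without Control 3 and DEX 5, the arrays farthest from the median. With quantile normalization r was 0.823. Rno-miR-29b-3p is encoded beside Mir29a on chromosome 4 and beside Mir29c on chromosome 13. The spots of rno-miR-29a-3p and rno-miR-29b-3p lie side by side on the array (block 30, columns 9 and 10). Those of the dimmer rno-miR-29a-5p and rno-miR-29b-5p also do (block 21, columns 5 and 6), with r = 0.449 (permutation test, adjusted p = 0.196). Among the brightest of the 405 miRNAs detected on all arrays (one part in 3), pairs of neighbouring spots had a median r of 0.897 (38 pairs) and other pairs 0.599 (9007 pairs). Of all 9045 bright pairs, 0.188% had a higher r than the pair of rno-miR-29a-3p and rno-miR-29b-3p. This comparison of neighbours was chosen after the values were seen, and the part of spot position was not tested.

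Rno-miR-29c-3p, whose spot lies in another block (block 12), had lower correlations, a difference that was not tested. With rno-miR-29a-3p, from which it differs by 1 base, it had r = 0.856 and rho = 0.867 (permutation p = 0.00119 and 0.00204, adjusted 0.00892 and 0.0153). With rno-miR-29b-3p it had r = 0.807 and rho = 0.830 (permutation p = 0.00389 and 0.0044, adjusted 0.0146 and 0.017). Without Control 3 and DEX 5 these fell to r = 0.732 (exact permutation p = 0.0201) and r = 0.649 (exact permutation p = 0.0752), so the second rested in part on these arrays. Among bright pairs, 18.8% and 27% had a higher r, so these values were common on these arrays. Both pairs also depended on the scaling: with each array scaled on the miRNAs detected on all arrays r was 0.737 and 0.655, and with quantile normalization 0.580 and 0.266. With each slide and group centred on its mean, the 3 pairs of 3p arms kept r of 0.976, 0.784 and 0.726.

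**Figure D3:**
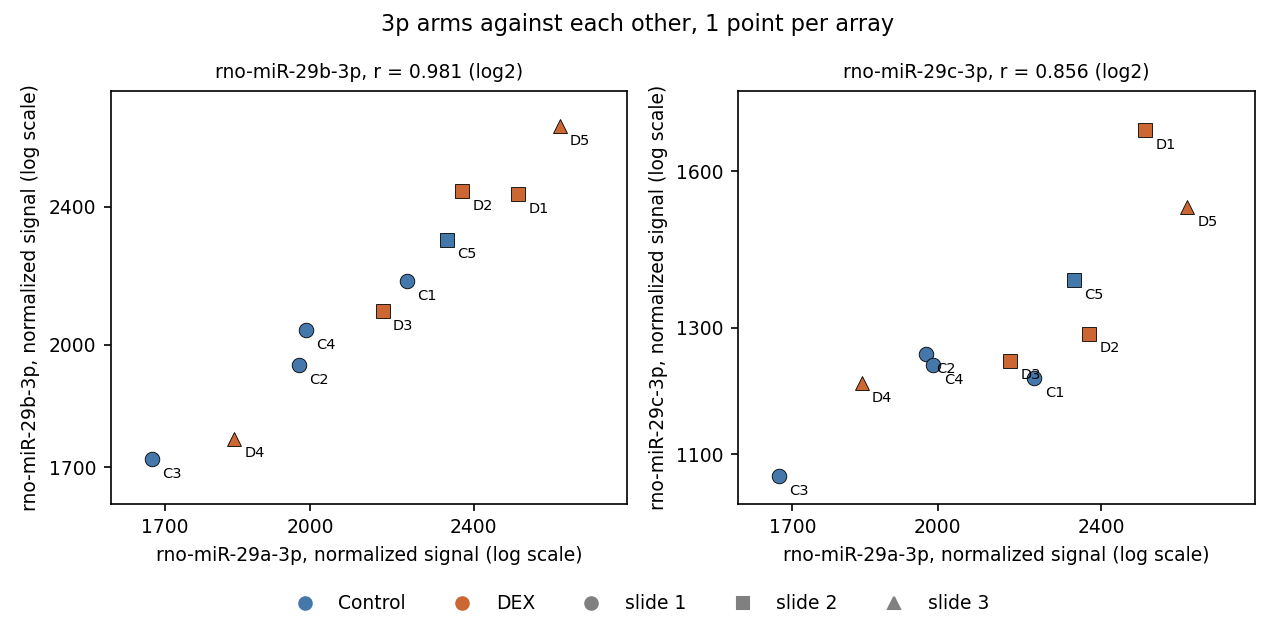
Normalized signal of rno-miR-29b-3p (left) and rno-miR-29c-3p (right) against rno-miR-29a-3p, 1 point per array on log axes, with colour for group, shape for slide and C or D with the replicate number. The left panel is nearly a line (r = 0.981), and in the right panel (r = 0.856) DEX 1 lies above the trend of the other arrays.

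The 2 arms of one hairpin name had lower correlations than the first pair of 3p arms, a difference that was not tested. Rno-miR-29a-3p and rno-miR-29a-5p had r = 0.794 and rho = 0.830 (permutation p = 0.00609 and 0.00473, adjusted 0.0183 and 0.017), and r = 0.769 without Control 3 and DEX 5. For miR-29b the values were r = 0.590 and rho = 0.539 (permutation p = 0.0768 and 0.115, adjusted 0.115 and 0.143), with r = 0.642 without the same arrays. For miR-29c they were r = 0.499 and rho = 0.552 (permutation p = 0.145 and 0.107, adjusted 0.155 and 0.143), with r = 0.246 without DEX 1 and DEX 5. The other pairs past the threshold by r were rno-miR-29b-3p with rno-miR-29a-5p (r = 0.826) and rno-miR-29c-3p with rno-miR-29b-5p (r = 0.708), and the latter rested on DEX 1 and DEX 5, without which r was 0.250. With each array scaled on the miRNAs detected on all arrays, r was 0.741, 0.072 and 0.308 for the arms of miR-29a, miR-29b and miR-29c, and 0.785 and 0.194 for these last pairs. With quantile normalization r was 0.564, 0.580 and -0.097 for the arms, and 0.612 and 0.719 for the last pairs. Within the 5 Control arrays r was 0.525, 0.054 and 0.114 for the arms, and 0.564 and 0.283 for the last pairs. Within the 5 DEX arrays it was 0.966, 0.845 and 0.508, and 0.950 and 0.949. The difference between the groups in r was not tested.

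Outside the family, the miRNAs whose level over the 10 arrays was most like that of a 3p arm were found among the 404 others detected on all arrays, as a description without a test. For rno-miR-29a-3p and rno-miR-29b-3p, after each other, they were rno-miR-26b-5p (r = 0.950 and 0.914) and rno-miR-21-5p (r = 0.940 and 0.929), the latter a miRNA known from cardiac fibroblasts. For rno-miR-29c-3p they were rno-miR-26b-5p (r = 0.957), rno-miR-16-5p (r = 0.955) and rno-miR-30c-5p (r = 0.924). High values were common among bright miRNAs: the median r was 0.600 over the 9045 bright pairs used above, against 0.253 over all 81810 pairs. With family members counted, 17 of the 404 had r over 0.9 with rno-miR-29a-3p, 8 with rno-miR-29b-3p and 6 with rno-miR-29c-3p. All miRNAs of an array also share its scaling factor.

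A list of 20 other miRNAs studied for collagen and fibrosis in the heart was read from the same fit. All 20 were tested, 0 passed the adjusted threshold of limma and 1 had an unadjusted p under 0.05. In DEX 18 were higher and 2 lower, against 5 and 15 without scaling, 12 and 8 with quantile normalization, 11 and 9 with normexp, and 4 and 16 with slide as a fixed term. The median log2 difference of the list was 0.149, beside 0.044 over all tested miRNAs. The highest member was rno-miR-132-3p at 0.61 ± 0.24 (SE, limma adjusted p = 0.905), which ranged from 3.64 to 5.48 in Control and from 4.62 to 11.2 in DEX and so lay near the floor. Its log2 difference was 0.25 without slide 3 and 0.06 with no background subtracted. The lowest was rno-miR-214-3p, a miRNA of fibroblasts, at -0.07 ± 0.14 (SE, limma adjusted p = 0.916).

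Marker miRNAs of the cell types in the ventricle were set beside the family. The summed signal of 4 fibroblast markers was 994 to 1771 in Control and 1251 to 2405 in DEX, and 4 of 4 were detected on all arrays. That of 2 endothelial markers was 4360 to 5783 and 4370 to 6739. The 4 leukocyte markers summed to 690 to 889 and 804 to 1073, and the 3 red cell markers to 564 to 1028 and 349 to 1004. The median log2 difference of the markers was 0.170 for fibroblasts (3 of 4 higher), 0.068 for endothelium (2 of 2), 0.250 for leukocytes (4 of 4) and -0.593 for red cells (1 of 3), while without scaling it was -0.036, -0.138, 0.045 and -0.798 and with quantile normalization 0.048, -0.091, 0.120 and -0.742, in the same order. The fibroblast median was also below 0 with normexp and the endothelial one with no background subtracted, and both with slide as a fixed term. For the heart muscle markers the median was 0.140 (4 of 5 higher), near that of the fibroblast markers. It was -0.066 without scaling, -0.062 with quantile normalization and -0.259 with slide as a fixed term. The ranges overlapped in each of these lists, 0 of their members passed the adjusted threshold, and their part in the level of miR-29 was not tested.

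**Figure D4:**
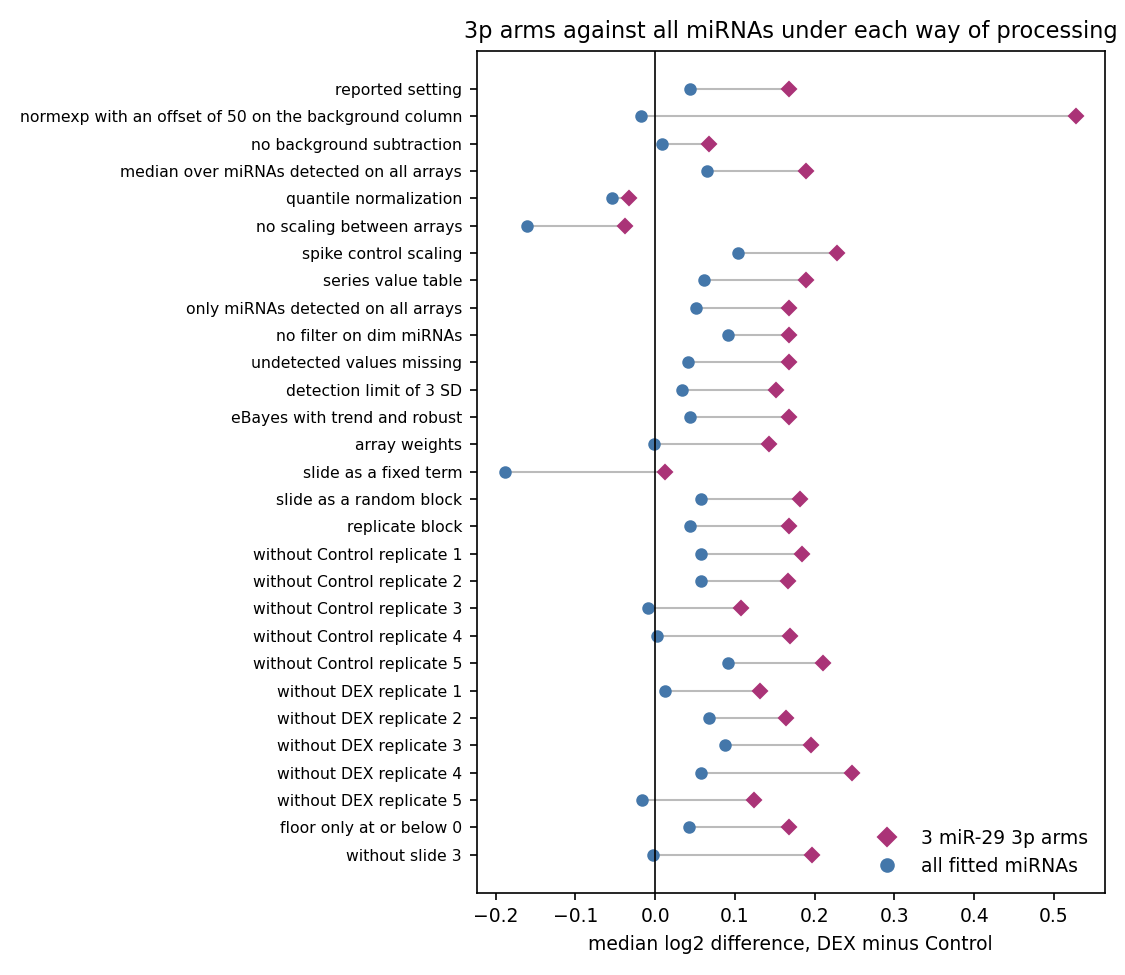
Median log2 difference, DEX minus Control (x axis), of the 3 miR-29 3p arms (purple diamonds) and of all fitted miRNAs (blue circles) under each way of processing. The diamonds lie to the right of the circles in every row, by 0.020 to 0.546, and lie below 0 with quantile normalization and without scaling. Rows that differ only by one factor per array have the same distance (0.124) by construction. The rows of the trend and robust options and of the replicate block also repeat it, so the rows are not separate observations.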

How the data were processed

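Total RNA from the left ventricle of 10 rats (5 Control, 5 DEX) was read on rat miRNA chips with the dye Cy5, 1 array per rat. Per the file headers, the deposited scanner values are spot intensities at 635 nm on a linear scale, merged from 3 gain settings, with no background removed. The authors also deposited a table holding a processed score for each miRNA and array. Of 5038 scores, 99.8% were within 0.51 of the scanner intensity minus the blank mean, scaled array by array to a median of 25 over the 405 miRNAs detected on all arrays. The median over all scores of an array was 15 to 18, so the scaling used below, over each array's own detected miRNAs, differs from the authors' and theirs was run as an alternative. No other column of values was left unused (0). The miRBase release and the software version were not given in the sources used here.

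From every spot the blank mean was removed, taken over 1664 blank spots after trimming 5% from either end. Arrays were then scaled to a median of 25 over their own detected miRNAs, undetected miRNAs were set to the array's floor, and log2 was taken. Of the 4 badly marked miRNA spots, 0 belonged to a member. Detection was taken from the table, and a limit of 2 SD above the blanks differed from it in 2 of 7610 calls. A set of 503 miRNAs, those with detection on 5 arrays or more, was fitted with limma 3.58.1 (R 4.3.3, lmFit and eBayes, two-sided, Benjamini-Hochberg adjustment over all of them, threshold 0.05). For single measures and ratios the exact permutation test was used (two-sided), and correlations with 100000 resamples (Python 3.11.15, scipy 1.17.1). The fitting code was tested on simulated data. Figures were drawn with matplotlib 3.10.9. The number of arrays limits the precision.

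The members, the marker and matrix lists, the tests and the alternatives were chosen with earlier results of these data known. The named miRNAs were the 6 members, others with the same seed, the 3 most like each 3p arm, and the highest and lowest of the matrix list when none passed the threshold. The miRNAs of the opposite strand and the 5p strand of Mir29b1 were named beyond this rule. Alternatives covered background correction, scaling, the authors' table, detection and filter limits, model terms, the methods' t-test and leaving out each array. Leaving out slide 3 and setting the floor only at or below 0 were added after seeing the data. Positions and sequences came from RefSeq tables of build GRCr8. The arrays' slides were inferred from chip codes in the array names, and the label and the methods name different RNA extraction kits.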

Additional observations from a re-analysis of the deposited data

Results flagged for a closer look

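One measure in one group of 5 arrays had an array far from the rest, out of 26 such groups looked at, and about 1.3 are to be expected by chance. It was the log2 median signal over blank before scaling on DEX 1, whose gap to the nearest DEX array was 0.809 of the group's range, above Dixon's critical value. The spike control spots averaged 5550 on this array and 10308 to 15984 on the other 9. Scaling uses one factor per array, and without DEX 1 the log2 differences of rno-miR-29a-3p, rno-miR-29b-3p and rno-miR-29c-3p were 0.14, 0.13 and 0.095. The part of the dim array in these values was not tested.

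Probe-free spots are used in no comparison. On slide 3 they were bright, at a median of 37.7 over blank for DEX 4 and 28.8 for DEX 5. The Control arrays had 6.62 to 10.2, and DEX 1 to DEX 3 on slide 2 had -0.797, 5.67 and 5.43. The brightness was thus seen on the DEX arrays of slide 3 and not on those of slide 2. Without slide 3 the 3p arms had log2 differences of 0.21, 0.20 and 0.18 in the same order, as large as with it. Slide 3 held DEX arrays alone, so for the member values slide and group cannot be told apart there.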

How the results depend on the processing

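At an adjusted p under 0.05, each of the 29 alternatives called 0 members and 0 miRNAs, the methods' t-test being taken here after Benjamini-Hochberg adjustment. The lowest adjusted p lay between 0.615 and 0.996 for a member and between 0.0608 and 0.992 for any miRNA. Of 174 alternative values of the member log2 differences, 156 kept the direction and 18 turned it. This count does not measure stability, since some of the values could not differ from the reported ones. For members detected on all arrays, the filters on miRNAs, the handling of undetected values and the replicate block left the log2 difference unchanged. So did the trend and robust variance options of limma. Array weights and a detection limit of 3 SD moved it, for rno-miR-29a-3p from 0.18 to 0.15 and to 0.16. Slide as a fixed term and the comparison within slide 2 gave the same values. Without scaling the values were -0.029 (rno-miR-29a-3p), -0.047 (rno-miR-29b-3p), -0.038 (rno-miR-29c-3p), -0.056 (rno-miR-29a-5p), -0.11 (rno-miR-29b-5p) and -0.10 (rno-miR-29c-5p). With quantile normalization the 3p arms had -0.029, -0.033 and -0.038, and with normexp rno-miR-29a-5p had -0.012 and rno-miR-29b-5p -0.010. Normexp also moved the 3p arms to 0.56, 0.53 and 0.21, while with no background subtracted they had 0.077, 0.060 and 0.067. With slide as a fixed term, and within slide 2, rno-miR-29b-5p had -0.45 and rno-miR-29c-5p -0.017. Leaving out each array gave 0.11 to 0.26 for rno-miR-29a-3p, 0.098 to 0.25 for rno-miR-29b-3p, 0.095 to 0.22 for rno-miR-29c-3p, 0.038 to 0.26 for rno-miR-29a-5p, -0.081 to 0.25 for rno-miR-29b-5p and 0.065 to 0.14 for rno-miR-29c-5p. The causes were not tested.

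None of the 6 ratios passed the test under any of the 20 alternatives that could pass it. The other 3 (within slide 2, slide as a fixed term, replicate block) cannot, since their smallest exact p is 0.25, 0.25 and 0.0625. Of 138 values, 29 turned direction. Scaling by one factor per array cannot change a ratio, so some of these values could not turn. With normexp the log2 ratio of rno-miR-29c-3p to rno-miR-29b-3p was -0.32 and the miR-29a, miR-29b and miR-29c arm ratios were 0.57, 0.54 and 0.20. With quantile normalization it was -0.004, and the 3p to 5p ratios were -0.18 (miR-29a), -0.14 (miR-29b) and -0.065 (miR-29c). Within slide 2, and with slide as a fixed term, the miR-29a arm ratio was -0.092, rno-miR-29b-3p to rno-miR-29a-3p 0.003 and rno-miR-29c-3p to rno-miR-29b-3p -0.005. Leaving out each array, the arm ratios ranged from -0.025 to 0.11 (miR-29a), -0.054 to 0.20 (miR-29b) and -0.004 to 0.13 (miR-29c), and the 3p ratios from -0.035 to -0.008 (29b to 29a), -0.046 to 0.028 (29c to 29a) and -0.036 to 0.063 (29c to 29b).

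The replicate numbers were shared between groups, and 1 of 5 pairs of same-numbered arrays had deviations correlated over 0.1. This count cannot decide whether the arrays are paired, and the paper describes random assignment to the groups. For rno-miR-29a-3p, rno-miR-29b-3p and rno-miR-29c-3p the SE was 0.11, 0.12 and 0.11 with a replicate block, against 0.15, 0.15 and 0.14 without it. With the replicate block the smallest adjusted p of a member was 0.674, and 35 miRNAs had an unadjusted p under 0.05 against 15 without the block. Near the floor, as for rno-miR-29b-5p, signal over background limits what can be seen.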
